A study of Mus musculus with 7 samples.

Results

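The nuclear genes of oxidative phosphorylation were followed through the fetal and newborn mouse ovary. They were taken by symbol: genes whose names begin with Nduf followed by a, b, c, s or v, with Uqcr, with Cox and a digit from 4 to 8, or with Atp5. The count tables held 89 such rows among 31053 genes, with 88 different symbols because Atp5o appeared in 2 rows. They comprised 36 genes of complex I, 8 assembly factors of complex I, 8 genes of complex III, 20 of complex IV and 17 of complex V, spread over the autosomes and the X chromosome, which carried Ndufa1, Ndufb11 and Cox7b. Ndufa4 and its relative Ndufa4l2, named for complex I but known to associate with complex IV, were counted with complex IV. Complex II, whose subunits also belong to the citric acid cycle, and cytochrome c fell outside the rule and were treated as neighbouring lists.

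Single cells were captured by droplet 3′ sequencing from untreated wild-type C57BL/6J females, with 1 library at each of 7 ages: E11.5 (gonads), then ovaries of E12.5, E14.5 and E16.5 fetuses, of E18.5 fetuses and of newborns at P1 and P5. Per the study's methods each library combined the gonads of several animals. Trypsin digestion lasted 20 min at E11.5 and E12.5, 40 min at E14.5 and E16.5, 60 min at E18.5 and 80 min at P1 and P5, so digestion lengthened with age and cannot be told apart from it except within E11.5 and E12.5, E14.5 and E16.5, and P1 and P5, which were digested alike. With 1 library an age there was no test between 2 ages, and the libraries served as the replicates of comparisons between cell classes.

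Of 52542 deposited cells, 47983 had at least 500 detected genes and were kept, with a median of 6478 to 11494 transcript molecules (unique molecular identifiers, UMIs) a cell in the 7 libraries. Cells were put into classes by marker genes: germ cells by Dazl and Ddx4, pregranulosa (PG) cells by Wnt6 and Kitl, epithelium by Upk3b, stroma by Nr2f2 and Col1a1, endothelium by Cldn5, Cdh5 and Pecam1, and erythroid cells by globin and red cell genes. The name PG cells is used for the Wnt6 and Kitl gate at every age. That gate does not separate the bipotential and epithelial pathways of PG cells that the study describes. The study regards Wnt6-positive cells of E11.5 as likely bipotential precursors and names the P5 clusters of both pathways granulosa cells. In all, 30366 cells (63.3%) passed 1 gate, 3380 (7.04%) passed several and 14237 (29.7%) passed none, and only the first set was used. Independent marker lists ran highest in their own class, except that 1 of the 8 pregranulosa markers was highest in epithelium. The epithelial class also carried stromal markers at a summed 803 to 2794 CPM (UMIs of a gene per 1000000 UMIs of the class), beside 1535 to 7340 CPM in stroma, and pregranulosa markers at 319 to 1285 CPM, beside 902 to 2613 CPM in PG cells. Stroma, with which PG cells are compared below, itself carried pregranulosa markers at a summed 201 to 558 CPM. It also carried markers of mural cells, a class described below, at a summed 323 to 1096 CPM, beside 891 to 2038 CPM in mural cells. Immune markers summed to at most 127 CPM in any class. Germ cells numbered 253, 2188, 812, 304, 179 and 51 from E12.5 to P5. The 9 germ cells of E11.5 and the 17 epithelial cells of E18.5 were too few to be summed.

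The E16.5 library stood apart from the other 6. It shared 0 to 3 cell barcodes with each other library, whereas the others shared 22 to 136 with one another. In it 11 barcodes began with AAACCC and 0 with AAACCT, while the other libraries held 0 of the former and 7 to 25 of the latter, although the labels give the same chemistry for all. Its cells also carried the highest mitochondrial share of every class (5.67% in stroma and 12.2% in PG cells, beside 3.25 to 4.42% and 4.25 to 9.94% elsewhere). Results are therefore also given without it.

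The respiratory chain passes electrons from NADH through complex I, ubiquinone, complex III, cytochrome c and complex IV to oxygen, and the proton gradient so built drives ATP synthesis at complex V. The mitochondrial genome encodes 13 of the proteins of these complexes, and the nucleus encodes all the others, so each complex is assembled from both sources. Several nuclear subunits of complex IV exist as pairs of genes, of which one member is widely used and the other is known from particular tissues such as heart, muscle, lung or testis. Oocytes are known to carry large numbers of mitochondria and to rely on pyruvate supplied by the granulosa cells around them.

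Promoter windows (250 bases before to 50 after the RefSeq start of a gene, build GRCm38.p6) were at hand for 73 of the 88 symbols. They were rich in CpG, with a median of 20 CpG in 300 bases beside 8 over the promoters of 27025 genes of the tables. The palindromic consensus of nuclear respiratory factor 1 (NRF1), whose 10 letters are the capitals of the first 5 sequences below, stood in 7 of the 73 windows (9.59%) and in 1.07% of all windows, and CCGGAAGT, bound by ETS factors such as GABPA, was found on either strand in 5 (6.85%) and in 4.31% of all. Both are known regulators of respiratory genes, and a match describes the sequence without showing that a factor binds there. The upstream matches are printed with the motif in capitals to show how it sits in the windows that hold it, since most members' windows hold neither motif:
Atp5g2, c subunit of complex V, chr15:102671060-102671109, minus strand: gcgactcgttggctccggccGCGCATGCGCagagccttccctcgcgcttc
Atp5k, e subunit of complex V, chr5:108434420-108434469, minus strand: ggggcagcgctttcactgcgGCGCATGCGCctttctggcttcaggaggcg
Cox6a1, complex IV, chr5:115349091-115349140, minus strand: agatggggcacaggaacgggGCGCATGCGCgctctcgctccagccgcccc
Ndufa11, complex I, chr17:56717682-56717731, plus strand: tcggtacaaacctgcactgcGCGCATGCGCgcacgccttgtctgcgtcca
Ndufaf4, complex I assembly, chr4:24897950-24897999, plus strand: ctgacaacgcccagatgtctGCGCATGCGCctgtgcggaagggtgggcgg
Atp5h, d subunit of complex V, chr11:115419931-115419978, minus strand: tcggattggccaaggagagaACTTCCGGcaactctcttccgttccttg
Uqcr11, complex III, chr10:80406860-80406907, minus strand: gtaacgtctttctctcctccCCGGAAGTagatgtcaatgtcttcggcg
Uqcrh, complex III, chr4:116075071-116075101, minus strand: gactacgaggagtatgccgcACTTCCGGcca
The motif began 42 bases before the start in Atp5g2, 50 in Atp5k, 60 in Ndufa11, 113 in Ndufaf4 and 162 in Cox6a1. The matches of Ndufaf5 and Uqcrc1 (NRF1) and of Cox8a and Ndufs3 (GABPA) did not lie wholly before the start and are not printed.

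Germ cells devoted more of their RNA to these genes than any somatic class of the same library. Summed over the members, germ cells held 40770.4, 51439, 27861, 41892, 49889.9 and 55053 CPM from E12.5 to P5, that is, 2.79 to 5.51% of their UMIs. PG cells held 30004, 27779.7, 28499, 19083, 23050.5, 25432 and 27667 CPM from E11.5 to P5. Stroma held 27789, 23413, 26365, 16763, 19617, 22209 and 24962 CPM over the same 7 libraries. The germ level was the highest of the classes in each of the 6 libraries that had germ cells, and in every class but the erythroid the E16.5 library gave the lowest value. A level here is a share of the UMIs of a class and does not give molecules per cell. Counting error alone was small, with an exact 95% Poisson interval of 40607 to 40935 CPM for the E12.5 germ cells.

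**Figure D1:**
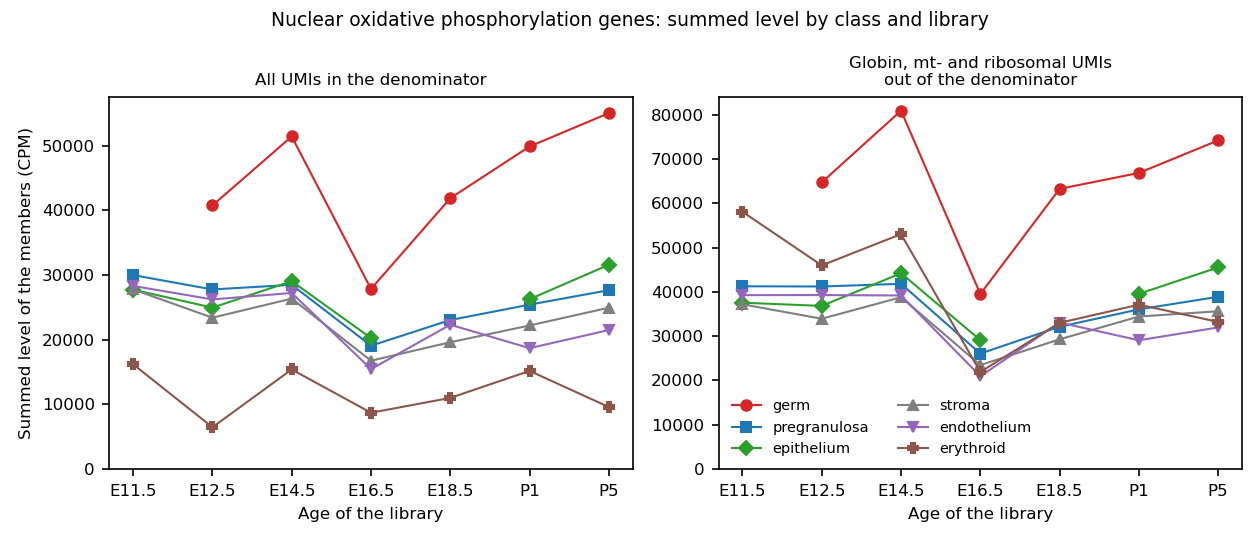
Summed level of the 89 nuclear genes in CPM (vertical axis) by age of the library (horizontal axis), 1 point per class and library; the right panel takes globin, mt- and ribosomal UMIs out of the denominator. Germ cells lie above the other classes in all 6 of their libraries in both panels, and erythroid cells move from the lowest class to between 21935 and 58077 CPM.

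On the log2 scale germ cells exceeded PG cells of the same library by 0.80 ± 0.20 (SD, higher in 6 of 6 libraries), a 1.74-fold difference with a range of 0.55 to 0.99, and stroma by 0.98 ± 0.18 (SD, higher in 6 of 6 libraries). PG cells exceeded stroma by 0.18 ± 0.05 (SD, higher in 7 of 7 libraries), small beside the germ difference but larger than its spread between libraries. For epithelium the difference from stroma was 0.18 ± 0.13 (SD, higher in 5 of 6 libraries) and for endothelium -0.02 ± 0.17 (SD, higher in 4 of 7 libraries), the latter within its own spread. Each complex took part in the germ excess over PG cells: 0.90 ± 0.29 (SD, higher in 6 of 6 libraries) for complex I, 0.95 ± 0.34 (SD, higher in 6 of 6 libraries) for its assembly factors, 0.84 ± 0.19 (SD, higher in 6 of 6 libraries) for complex IV, 0.70 ± 0.19 (SD, higher in 6 of 6 libraries) for complex V and 0.52 ± 0.20 (SD, higher in 6 of 6 libraries) for complex III. No p is given for these sums, since the members were chosen with earlier results in view. Without E16.5 the germ difference was 0.85 from PG cells and 1.03 from stroma.

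Erythroid cells read differently according to what they are compared with. Globin made up 36.2 to 81.1% of their UMIs, and their members summed to only 16209.9, 6469, 15408, 8711, 11013, 15184 and 9594 CPM, below stroma in all 7 libraries (-1.02 ± 0.45, SD, higher in 0 of 7 libraries). With globin, mitochondrially encoded and ribosomal UMIs left out of the denominator of every class, the erythroid difference from stroma was 0.23 ± 0.29 on the log2 scale (SD, higher in 5 of 7 libraries), against 0.83 ± 0.16 for germ over PG cells and 0.98 ± 0.13 for germ over stroma.

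Gene by gene, germ cells and PG cells were compared with edgeR's quasi-likelihood test on UMI counts summed by library and class, with the library as a block. FDR stands for the Benjamini-Hochberg adjusted p over all 14042 genes tested, and a gene passed at 0.05. Values in parentheses after a gene give the fitted log2 difference with its standard error (SE) and FDR. Of the 86 members tested (Cox6a2, Cox8b and the second Atp5o row were too low), 72 were higher in germ cells and 1 was lower, beside 34.0% higher and 31.2% lower among all genes. The median of the members was 0.95 on the log2 scale, beside 0.07 for all genes. With DESeq2's size factors in place of TMM scaling the median of all genes moved to -0.07 and that of the members to 0.81. Higher were 34 of 36 complex I genes, 7 of 8 assembly factors, 7 of 8 complex III genes, 13 of 18 complex IV genes and 11 of 16 complex V genes. Without E16.5, 72 of these 73 calls remained, and over the 7 libraries left out in turn the number was 59 to 72, lowest without E14.5. Exons of Ndufb2, Ndufb8 and Ndufb9 overlap another counted gene on the same strand, and reads of pseudogene copies cannot be told apart from those of their source, so single values of such genes are less certain.

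Against stroma the picture was close: 70 of 86 members were higher in germ cells and 0 lower (36.1% and 29.4% of all genes), with a median of 1.12 beside 0.16 for all genes. At an unadjusted p under 0.05, 74 members were higher and 1 was lower in edgeR, beside 68.2% of all genes over both directions. DESeq2 called 67 higher and 0 lower. By complex, 34, 6, 6, 12 and 12 genes of complex I, its assembly factors, complex III, complex IV and complex V were higher. All 70 calls remained without E16.5. The comparisons with stroma share the stroma sums, and the 2 germ comparisons share the germ sums, so they do not stand as separate evidence.

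**Figure D2:**
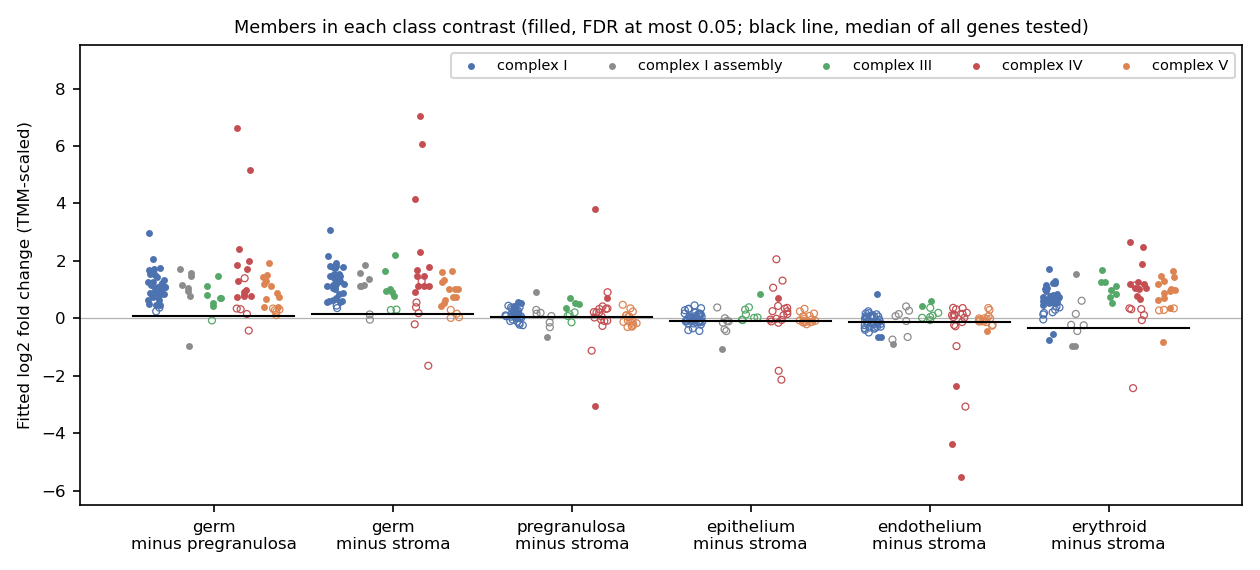
Fitted log2 fold change (vertical axis) of each tested member in 6 class comparisons (horizontal axis), coloured by complex; filled points passed an FDR of 0.05 and black lines mark the median of all genes tested. Most points lie above the line in the 2 germ comparisons and in the erythroid one, and around it in the other 3.

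Complex I, which takes electrons from NADH, had 34 of its 36 members higher in germ cells. Its X-linked accessory subunit Ndufa1 stood at 137, 447, 972, 1451, 927 and 808 CPM in germ cells from E12.5 to P5 and at 71.8 to 145 CPM in PG cells, so the E12.5 germ library lay inside the PG range and the other 5 above it. The fitted log2 difference was 2.97 (SE 0.33, FDR 8.97e-10), and the per-library differences (log2 with 5 CPM added) were 0.50, 1.63, 3.67, 3.28, 2.97 and 2.47. The 4 libraries from E16.5 on were far above the 2 before them, with no test between ages. Ndufb6, an accessory subunit of the membrane arm, was at 337, 589.5, 350.3, 574, 883 and 539 CPM in germ cells and 96.2 to 191 CPM in PG cells, with no overlap (2.05, SE 0.21, FDR 1.42e-10). Ndufs5 was at 553, 925, 526, 773, 956 and 796 CPM in germ cells, 224 to 336 CPM in PG cells and 139.7 to 237 CPM in stroma, again without overlap (2.17, SE 0.17, FDR 4.39e-13 against stroma). Ndufa2, on average over the libraries the most abundant complex I transcript of every class, was at 713, 1164, 447, 831, 773 and 974 CPM in germ cells and 266 to 569 CPM in PG cells (1.06, SE 0.14, FDR 4.31e-08). Here the E16.5 germ library was within the PG range, and the other 5 were above it. In germ cells Ndufa1 exceeded Ndufa2 at E16.5, E18.5 and P1.

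Among the core subunits that carry the flavin and iron-sulfur centres and the quinone site, Ndufs7 (1.70), Ndufv1 (1.35), Ndufv2 (1.15), Ndufs1 (1.09) and Ndufs3 (0.83) were higher in germ cells than in PG cells, with FDR up to 5.98e-04. Ndufs8 did not pass (0.37, SE 0.21, FDR 0.120), nor did the accessory subunit Ndufa3 (0.24, SE 0.22, FDR 0.330). Ndufab1, the acyl carrier protein that is also a complex I subunit, was higher by 1.504 (FDR 3.96e-09). These genes were grouped by role after their values were seen.

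The assembly factors ran at lower levels, and 1 of them went the other way. Ndufaf8 was on average over the libraries the most abundant in germ cells, at 119.8, 149.8, 198, 184, 178 and 147 CPM beside 53.4 to 91.2 CPM in PG cells (1.57, SE 0.19, FDR 9.39e-09), with every germ library above every PG library. Ndufaf4 was at 110.1, 52.9, 25.9, 74.2, 185 and 271 CPM in germ cells and 25.2 to 60.3 CPM in PG cells (1.71, SE 0.29, FDR 3.10e-06). Its partner in complex I assembly, Ndufaf3, was the 1 member that edgeR called lower in germ cells: 23.3, 11.3, 2.34, 9.24, 16.1 and 63.1 CPM, beside 31.7 to 44.2 CPM in PG cells (-0.97, SE 0.34, FDR 0.0113). The 5 germ libraries from E12.5 to P1 were below the PG range and the P5 library was above it, and without E16.5 the difference was -0.59 (FDR 0.0918).

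Complex III, which passes electrons to cytochrome c, had 7 of 8 members higher. Uqcr11, a small subunit, was at 696, 1028, 400.4, 854, 871 and 975 CPM in germ cells, 216 to 501 CPM in PG cells and 107 to 428 CPM in stroma (1.49, SE 0.18, FDR 1.20e-08 against PG cells and 2.21, SE 0.19, FDR 2.50e-12 against stroma). Uqcrh, on average over the libraries the most abundant complex III transcript, was at 689, 1052, 658, 905, 864 and 859 CPM in germ cells and 531 to 855 CPM in PG cells, with overlapping ranges and a small fitted difference (0.44, SE 0.15, FDR 0.00789). Uqcrfs1, the Rieske iron-sulfur protein, was the complex III member that did not pass: 90.1 to 187 CPM in germ cells and 118 to 268 CPM in PG cells (-0.073, SE 0.14, FDR 0.666 on the TMM scale). As a share of UMIs it was lower in germ cells in 6 of 6 libraries, with differences of -0.36, -0.39, -0.37, -0.12, -0.16 and -0.33 (log2 with 5 CPM added).

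Complex IV, which reduces oxygen, held the most abundant members in germ cells. Cox7c was at 3319, 4648, 2452, 3903, 2732 and 2404 CPM in germ cells and 652 to 1302 CPM in PG cells, with no overlap (1.87, SE 0.17, FDR 6.41e-12). Cox5a was at 1215, 1373, 796, 731, 1297 and 925 CPM in germ cells and 243 to 437 CPM in PG cells (1.996, SE 0.20, FDR 1.05e-10), and Cox7a2 at 1349, 1578, 711, 1196, 1259.5 and 1429 CPM beside 264 to 559.6 CPM (1.73, SE 0.14, FDR 1.79e-12). Both were higher in every germ library than in any PG library. Cox4i1, the widely used form of subunit IV, was at 1547, 2137, 1070.0, 1466, 2018 and 2683 CPM in germ cells and 696 to 1260.0 CPM in PG cells (1.00, SE 0.14, FDR 6.36e-08). Cox6c was at 1413, 2241, 1111, 1874, 1889 and 2919.9 and 891 to 1685 CPM (0.74, SE 0.19, FDR 8.68e-04), with the E12.5 and E16.5 germ values inside the PG range.

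Cox8a and Cox7b followed another course in germ cells. Cox8a was at 1158, 480.1, 77.1, 228, 622 and 870.2 CPM there from E12.5 to P5, against 601 to 937 CPM in PG cells, and its E16.5 germ value was the lowest of any class and library. Over all libraries it did not pass in edgeR (-0.43, SE 0.27, FDR 0.158), while DESeq2 called it lower in germ cells (-0.57, FDR 0.0449). Without E12.5 it was lower in germ cells in edgeR too (-0.91, FDR 0.00241). Cox7b, on the X chromosome, was at 814, 419, 67.8, 206, 525 and 824 CPM in germ cells and 208 to 410.3 CPM in PG cells: above the PG range at E12.5, E14.5, P1 and P5 and below it at E16.5 and E18.5. Its fitted difference (0.81, SE 0.27, FDR 0.00948) lost its call without E12.5 (0.50, FDR 0.105), E14.5 (0.68, FDR 0.0656), P1 (0.62, FDR 0.0791) or P5 (0.57, FDR 0.0954). Ndufa4 was at 805, 1078, 392, 835, 1139 and 1729 CPM in germ cells and 532 to 954 CPM in PG cells (0.77, SE 0.22, FDR 0.00229, and 0.44, FDR 0.0565 without P5). Cox7a2l, a factor of respiratory supercomplexes, was at 328, 406, 749, 639.8, 499 and 565 CPM in germ cells and 392 to 683 CPM in PG cells and did not pass (0.15, SE 0.18, FDR 0.462), its highest germ values being those of E16.5 and E18.5.

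In complex V 11 of 16 members were higher in germ cells. Of the F1 part (catalytic head and central stalk), the alpha, beta, gamma and delta subunits did not pass: Atp5a1 (0.34, SE 0.16, FDR 0.0596), Atp5b (0.31, SE 0.18, FDR 0.143), Atp5c1 (0.23, SE 0.19, FDR 0.282) and Atp5d (0.11, SE 0.15, FDR 0.526), nor did the regulatory factor Atp5s (0.28, SE 0.23, FDR 0.289), while the epsilon subunit Atp5e was higher by 1.43 (FDR 2.22e-07). Atp5b was at 1073, 1312, 375, 566, 675 and 485 CPM in germ cells and 537 to 973 CPM in PG cells. The subunits of the peripheral stalk and membrane part passed, among them Atp5f1 (1.93), Atp5j2 (1.52), Atp5g2 (1.29), Atp5g1 (1.21), Atp5k (1.11) and Atp5l (0.90), each at an FDR of at most 3.87e-04. Whether the 2 sets of subunits differ was not tested, and they were formed after their values were seen. Atp5f1, subunit b of the peripheral stalk, was at 469, 904, 1649.6, 1527, 1234 and 548 CPM in germ cells and 248 to 508 CPM in PG cells. The E12.5 germ value lay inside the PG range, those of E14.5 to P1 were above it, and P5 was just above it. Atp5j2, subunit f and on average over the libraries the most abundant in germ cells, was at 985, 1691, 549, 1340.1, 1294 and 1514 CPM beside 312 to 647 CPM in PG cells.

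The 3 Atp5g genes encode the same mature c subunit of the rotor ring from different precursors. In germ cells Atp5g1 was at 1763, 1365, 215, 391, 669 and 943 CPM from E12.5 to P5 and made up 52.8, 42.1, 19.4, 26.2, 32.4 and 42.4% of the 3, so it was lowest at E16.5 and highest at E12.5. In PG cells its share was 30.6 to 40.9%. Atp5g2 was at 1099, 1188, 669.7, 641, 787 and 956 CPM in germ cells and 368 to 558 CPM in PG cells, above the PG range in all 6 libraries. Atp5g3 was at 479.9, 688, 222, 462, 606 and 322 CPM beside 288 to 467 CPM (0.67, SE 0.20, FDR 0.00441), and its call was lost without E12.5 (0.46, FDR 0.0640) or E14.5 (0.37, FDR 0.142).

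**Figure D3:**
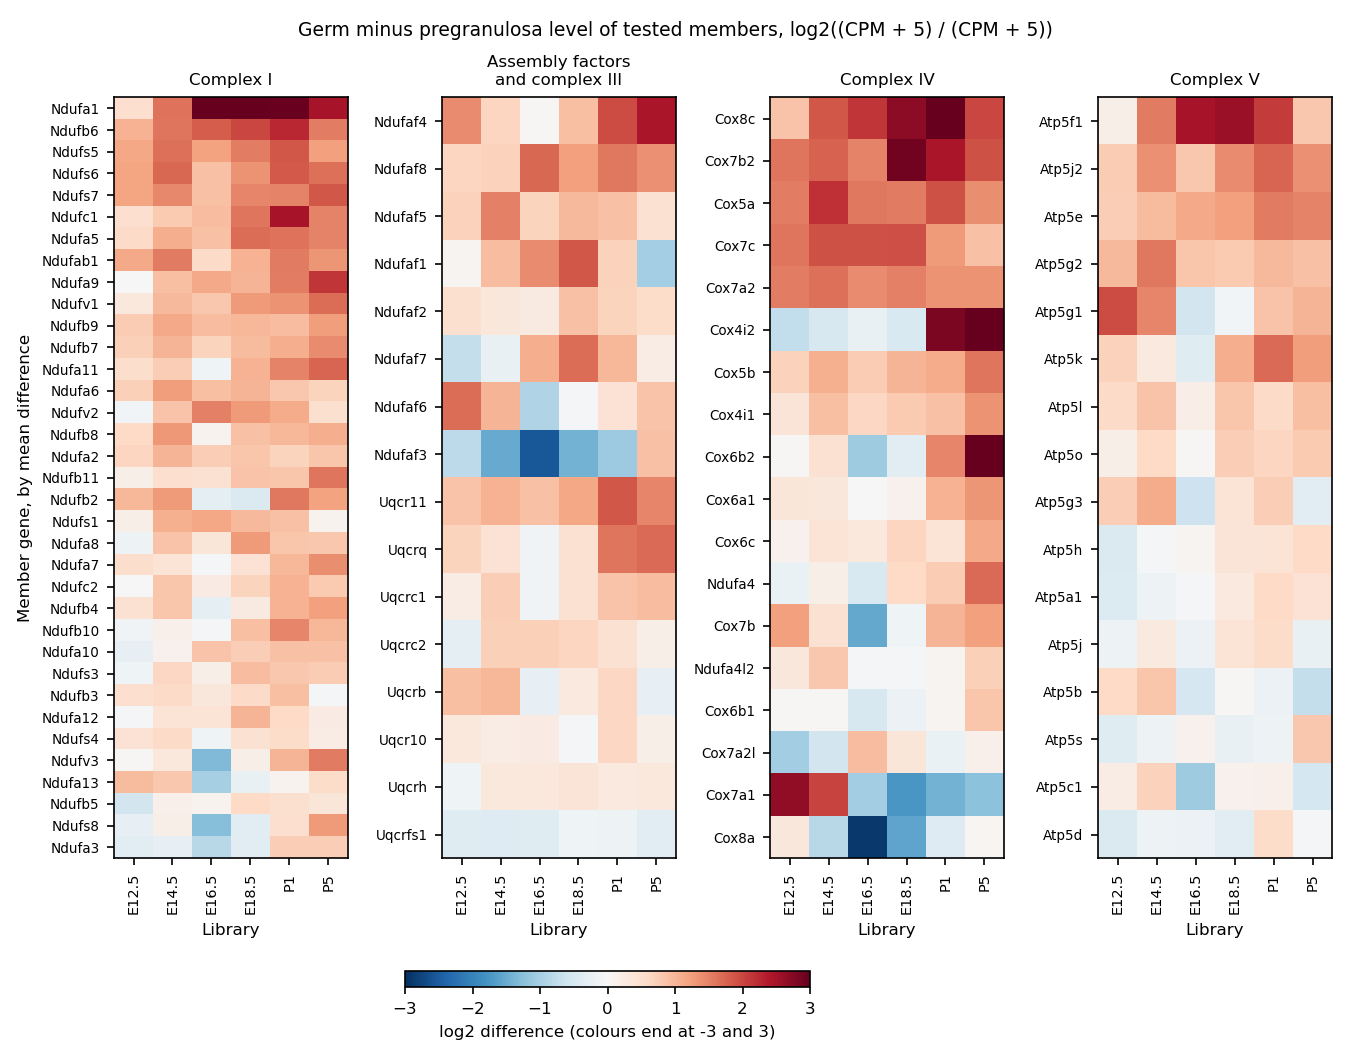
Difference between germ and PG cells of the same library for the tested members (rows, grouped by complex, 1 of them not shown) in 6 libraries (columns), as log2 of the ratio of CPM with 5 CPM added to both; red is higher in germ cells and colours end at 3 and -3. The median over members is highest at P1 and P5 (0.88 and 0.90) and lowest at E16.5 (0.24).

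The germ excess varied between the libraries. Of the 86 members, 63, 75, 54, 67, 79 and 76 were higher in germ cells, in order of age, and 38 were higher in all 6 libraries. The median difference over the members was 0.45, 0.80, 0.24, 0.76, 0.88 and 0.90 (log2 with 5 CPM added) in the same order. The smallest difference of a member fell at E12.5 for 37 members and at E16.5 for 32, and the largest at P5 for 29 and at P1 for 18. No test between these libraries was possible. The same counts and medians were not taken over all genes, so this variation cannot be assigned to the members rather than to all genes of a library.

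A linear slope over the order of the ages was fitted for each class. In germ cells 1 of 86 members rose with age and 0 fell, beside 3.92% and 2.54% of all genes (DESeq2, 1 and 1). The 1 that rose was Cox4i2, described with the paralogues. At an unadjusted p under 0.05, 1 rose and 2 fell, beside 21.9% of all genes over both directions. In PG cells edgeR called 0 of 84 members in either direction (2.29% and 1.63% of all genes rose and fell), and DESeq2 called 1 and 2. At an unadjusted p under 0.05 it was 1 and 5, beside 18.1% of all genes over both directions. In stroma edgeR again called 0 of 84 (4.10% and 2.55% of all genes), and DESeq2 called 0 and 0. At an unadjusted p under 0.05 it was 1 and 2, beside 23.0% of all genes over both directions. The DESeq2 shares of all genes are not given here. In a simulation on 11974 genes, all given the same common spread, the germ fit recovered 2.67% of simulated slopes of 0.5 on the log2 scale per step of age and 51.5% of slopes of 1. Small slopes could thus be missed. The members' own spreads were not simulated, so the smallest slope detectable for them was not measured.

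Some nuclear subunits of complex IV have a second gene known from particular tissues, and several of these paralogues differed widely between classes. The 120 bases before the start are printed for the pairs with a germ cell difference, with CG in capitals, since the pairs differ in CG content. Each tissue-specific gene is followed by its widely expressed partner:
Cox7b2, chr5:71548206-71548325, minus strand: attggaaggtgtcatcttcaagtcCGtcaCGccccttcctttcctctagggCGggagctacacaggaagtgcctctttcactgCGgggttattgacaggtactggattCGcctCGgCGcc
Cox7b, chrX:106015580-106015699, plus strand: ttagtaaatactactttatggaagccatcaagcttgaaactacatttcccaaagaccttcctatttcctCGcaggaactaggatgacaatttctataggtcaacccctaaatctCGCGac
Cox7a1, chr7:30184051-30184170, plus strand: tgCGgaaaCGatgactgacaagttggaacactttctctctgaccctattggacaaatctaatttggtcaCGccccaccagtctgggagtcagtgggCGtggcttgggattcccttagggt
Cox7a2, chr9:79759854-79759973, minus strand: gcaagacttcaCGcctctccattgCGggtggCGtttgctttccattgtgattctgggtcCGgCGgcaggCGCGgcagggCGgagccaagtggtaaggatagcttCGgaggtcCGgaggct
Cox6b2, chr7:4753095-4753214, minus strand: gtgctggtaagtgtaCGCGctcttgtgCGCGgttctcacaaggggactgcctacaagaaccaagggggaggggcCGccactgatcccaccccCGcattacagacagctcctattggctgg
Cox6b1, chr7:30626115-30626234, minus strand: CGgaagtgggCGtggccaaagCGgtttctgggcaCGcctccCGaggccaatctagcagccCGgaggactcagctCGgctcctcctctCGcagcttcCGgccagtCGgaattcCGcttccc
Over the 300-base window the CG count was 10 for Cox7b2 and 5 for Cox7b, 7 for Cox7a1 and 20 for Cox7a2, and 10 for Cox6b2 and 17 for Cox6b1 (RefSeq, GRCm38.p6).

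Cox7b2 and Cox8c, paralogues known from testis, were at higher levels in germ cells. Cox7b2 was at 11.3, 13.5, 10.8, 38.5, 25.6 and 15.9 CPM in germ cells from E12.5 to P5 and at 0.349 to 0.935 CPM in PG cells. Cox8c was at 4.11, 14.8, 17.9, 31.5, 44.7 and 15.5 CPM in germ cells and 0 to 0.705 CPM in PG cells. Neither overlapped between the classes. Both passed the filter on low counts through the germ sums, so their calls among the 72, and those against stroma, followed in part from that filter and no test is given for them. At least 1 UMI of Cox7b2 was found in 669 of 3796 germ cells (17.6%, exact 95% binomial interval 16.4 to 18.9%), beside 0.493% of PG and 0.207% of stromal cells and 0 of 649 mural cells, which by 3 counts allows a share of up to 0.462% of cells with a UMI and does not limit the share that express the gene. For Cox8c it was 854 of 3796 germ cells (22.5%, exact 95% binomial interval 21.2 to 23.9%), 0.196% of PG and 0.0811% of stromal cells. These intervals pool the cells of all libraries and cover counting error only. By library the germ share ran from 14.7% at E14.5 to 31.3% at P1 for Cox7b2, and from 9.09% at E12.5 to 52.0% at P1 for Cox8c. Germ cells were the deeper, with a median of 15062 UMIs beside 8513 in PG and 7890 in stromal cells. After each cell was thinned to 2000 UMIs the germ shares were 2.94% and 3.98%, and those of PG cells 0.0952% and 0.0346%. Cox8c made up 0.354, 2.99, 18.8, 12.1, 6.71 and 1.75% of Cox8c and Cox8a UMIs in germ cells by library, and Cox7b2 1.37, 3.12, 13.7, 15.7, 4.65 and 1.89% of its pair. Both shares were highest at E16.5 and E18.5, where the partner was lowest.

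Cox7a1, the heart and muscle form of subunit VIIa, changed sides between germ and PG cells. In germ cells it was at 106, 153, 7.70, 10.7, 6.73 and 17.0 CPM from E12.5 to P5, and in PG cells at 4.21, 12.7, 34.1, 21.1, 47.6, 26.5 and 46.5 CPM from E11.5 to P5. Germ cells were above PG cells at E12.5 and E14.5 and below them in the other 4 libraries, so the overall difference did not pass (0.34, SE 0.67, FDR 0.674). Against stroma, which held 0.646 to 6.59 CPM, both germ cells (4.16, SE 0.72, FDR 4.84e-06) and PG cells (3.82, SE 0.67, FDR 1.97e-05) were higher. The slope with age was lower in germ cells than in PG cells by 1.15 on the log2 scale per step of age (SE 0.26, FDR 0.0393), where 1 of 87 members was lower and 1 higher (2.21% and 2.29% of all genes). That call was lost without E12.5 (-0.84, FDR 0.226), E14.5 (-0.998, FDR 0.182) or P1 (-1.13, FDR 0.131). In epithelium Cox7a1 was at 1.34, 2.29, 6.42, 0, 11.8 and 58.9 CPM from E11.5 to P5 without E18.5.

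Cox4i2, known from lung and as a hypoxia-responsive form of subunit IV, was highest, among the germ libraries, in the latest. It was at 0.514, 1.82, 0.159, 0, 38.7 and 355 CPM from E12.5 to P5, against 1.04 to 6.54 CPM in PG cells, so only P1 and P5 were above the PG range. At P5, 44 of 51 germ cells (86.3%) had a UMI of it, at a median depth of 59101 UMIs, and at P1 30.7% had one. Among endothelial cells of all libraries, with a median of 11560 UMIs, the share was 0.221%. After thinning to 2000 UMIs the germ shares were 31.4% at P5 and 5.23% at P1, at most 0.403% in the other germ libraries and 0% in endothelium. Cox4i2 reached 11.7% of Cox4i2 and Cox4i1 UMIs in P5 germ cells. Its slope in germ cells was 1.83 (SE 0.44, FDR 0.0456) on the log2 scale per step of age, but the call was lost without E12.5 (1.92, FDR 0.115), E14.5 (2.51, FDR 0.117), P1 (1.85, FDR 0.157) or P5 (1.32, FDR 0.271). Cox4i2 was at no more than 1.82 CPM in germ cells before P1. It thus passed the filter on low counts of the germ fit mainly through the late sums, and its call followed in part from that filter. Its slope exceeded that of PG cells by 2.001 (SE 0.43, FDR 0.0332), also lost without E12.5 (2.23, FDR 0.0602), E14.5 (2.45, FDR 0.0876), P1 (1.86, FDR 0.158) or P5 (1.500, FDR 0.335). The average over all libraries (2.42, SE 1.07, FDR 0.0464 against PG cells) rested on the same late libraries: it was 1.00 (FDR 0.486) without P1, -0.065 (FDR 0.947) without P5 and 2.40 (FDR 0.0625) without E11.5. Its call was also lost with DESeq2 size factors (FDR 0.0643), under the stricter gate of 1000 genes and 10% mitochondrial UMIs a cell (0.0623) and with Scrublet doublets removed (0.0709).

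Cox6b2, another paralogue known from testis, was present in every class. It was at 164, 197, 23.9, 56.9, 150.3 and 469.7 CPM in germ cells, 107, 161, 142, 55.1, 73.6, 51.4 and 50.9 CPM in PG cells and 141, 82.1, 112, 70.5, 147, 116 and 125 CPM in erythroid cells, and lowest in endothelium at 4.25 to 25.4 CPM. As a share of Cox6b2 and Cox6b1 UMIs it made up 9.91 to 30.8% in germ cells, 23.0 to 39.8% in erythroid cells, 6.16 to 19.8% in stroma and 1.51 to 3.49% in endothelium. The endothelial range overlapped that of no other of these 3 classes. The germ excess over PG cells (0.93, SE 0.36, FDR 0.0226) was lost without E14.5 (0.80, FDR 0.0858), P1 (0.70, FDR 0.130) or P5 (0.34, FDR 0.403). The muscle forms Cox6a2 and Cox8b were near the limit of detection in all classes, at no more than 2.58 CPM and 1.86 CPM.

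Mural cells (Rgs5 with Notch3, Cspg4, Kcnj8 or Abcc9) were added for 2 paralogues known to respond to hypoxia: Ndufa4l2 was at 25.3, 123, 495, 474, 718 and 1082 CPM in them from E11.5 to P5 without E14.5, beside 3.83 to 17.4 CPM in stroma, and its partner Ndufa4 at 619, 642, 257, 250.5, 137 and 86.5 CPM. Cox4i2 was at 15.7, 62.2, 125, 174, 146 and 412 CPM in mural cells, and 255 of 649 mural cells (39.3%, exact 95% binomial interval 35.5 to 43.2%) had a UMI of it, beside 3.95% of stromal cells. The E11.5 class, 275 of these cells, held a UMI of it in 44 cells, beside 44.7 to 70.5% of mural cells in the other libraries. The identity of that class is less certain, since its mural markers were mixed. Pdgfrb was at 74.1 CPM in it and at 267 to 769 CPM elsewhere, and Mcam at 27.2 CPM beside 38.7 to 180 CPM. Des, at 109 CPM, was within the range of the other libraries (54.4 to 237 CPM), and Acta2 was highest at E11.5 (1389 CPM beside 381 to 1290 CPM).

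**Figure D4:**
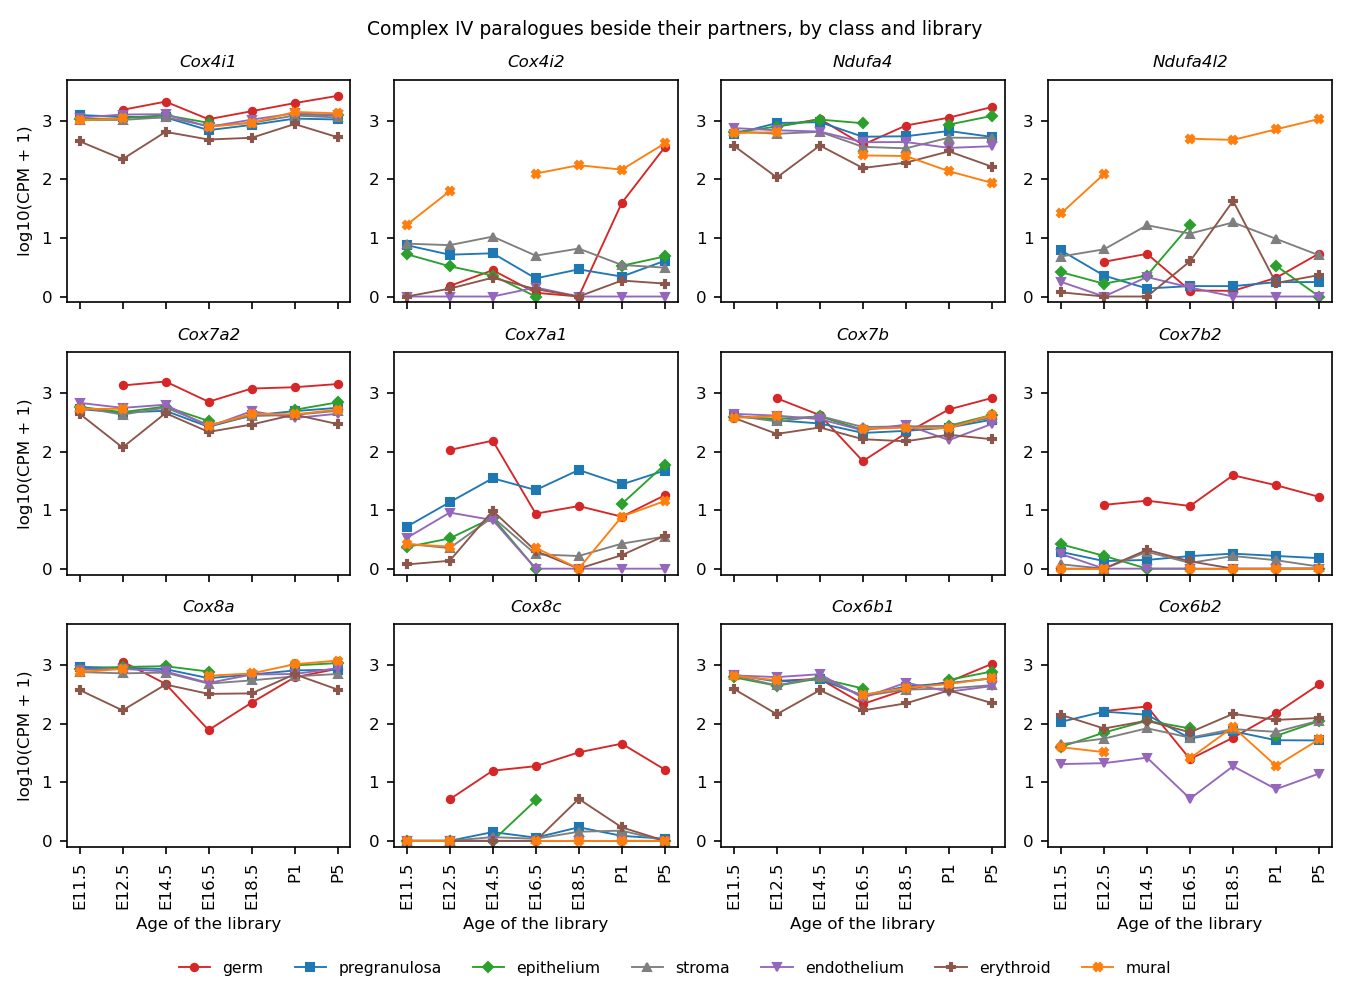
Level of 6 tissue-specific complex IV genes and their partners as log10 of CPM plus 1 (vertical axis) by age of the library (horizontal axis), 1 point per class and library, with gaps where a class had under 20 cells. Cox7b2 and Cox8c stand out in germ cells, Ndufa4l2 in mural cells, and Cox4i2 in mural cells and in P1 and P5 germ cells.

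In PG cells, epithelium and endothelium few members differed from stroma. PG cells were higher than stroma for 10 of 86 members and lower for 2, beside 18.3% and 15.1% of all genes, with a median of 0.11 beside 0.05. Apart from Cox7a1 these were Ndufaf3 (0.93, SE 0.30, FDR 0.0166), Uqcr11 (0.73, SE 0.18, FDR 0.00126), Cox6c (0.72, SE 0.18, FDR 0.00184), Ndufb4 (0.57, SE 0.19, FDR 0.0170), Ndufb7, Uqcrq, Uqcr10, Ndufs5 and Uqcrfs1, so 4 of 8 complex III genes were among them. Cox6c was at 891 to 1685 CPM in PG cells and 470.4 to 959 CPM in stroma. The assembly factor Ndufaf2 was lower (-0.65, SE 0.20, FDR 0.0117), as was Ndufa4l2, at 0.370 to 5.14 CPM in PG cells. The count of 10 became 5 without E12.5, 6 without E14.5, 4 without E16.5 and 5 without E18.5. Ndufaf3 lost its call without E14.5 (0.85, FDR 0.0638) or P1 (0.86, FDR 0.0528), and Ndufb4 without E12.5 (0.48, FDR 0.0604), E16.5 (0.44, FDR 0.105) or E18.5 (0.47, FDR 0.0766).

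Epithelium differed from stroma in 2 members that were higher, Uqcr11 (0.85, SE 0.19, FDR 0.00136) and Ndufa4 (0.71, SE 0.22, FDR 0.0230), and in Ndufaf2, which was lower (-1.05, SE 0.23, FDR 0.00136), beside 6.24% and 6.12% of all genes. Ndufa4 was at 637 to 1219.7 CPM in epithelium and 339.7 to 663 CPM in stroma, with overlap, and its call was lost without E14.5 (0.73, FDR 0.0570), E16.5 (0.53, FDR 0.163) or P5 (0.58, FDR 0.0835), each of which left 1 member higher. When the cells that passed both the Upk3b gate and the PG gate, 1176 before other gates were applied, were counted as epithelium, 12 members were higher and 2 lower. The share of all genes called under that alternative is not given here, so its counts cannot be set against it. That alternative was chosen after the data were seen, and the part of PG cells in the epithelial values was not tested.

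Endothelium was higher than stroma in 3 members, Ndufa8 (0.86, SE 0.17, FDR 1.24e-04), Uqcrq (0.61, SE 0.19, FDR 0.0123) and Uqcrfs1 (0.42, SE 0.14, FDR 0.0146), and lower in 7, beside 2040 of the 14042 genes tested (higher) and 18.0% of them (lower). Ndufa8, an accessory subunit, was at 269, 278, 280.4, 186, 203, 178 and 175 CPM in endothelium and 104 to 145 CPM in stroma, without overlap. The lower ones were Cox4i2, Ndufa4l2, Cox6b2 (-2.34, SE 0.40, FDR 1.15e-05), Ndufaf2 (-0.88, SE 0.22, FDR 0.00141), Ndufv3 (-0.66, SE 0.23, FDR 0.0253), Ndufa5 (-0.66, SE 0.20, FDR 0.00963) and Atp5o. Cox4i2 was at 0 in 6 of 7 endothelial libraries and at 0.425 CPM at E16.5, beside 2.11 to 9.57 CPM in stroma (FDR 0.0207, and 0.0508, 0.0558 and 0.0546 without E11.5, E14.5 and E16.5). The endothelial sums came from only 32 to 134 cells a library, so a 0 in a single library does not show absence. The part of mural cells in the stromal values of Cox4i2 and Ndufa4l2, here and beside PG cells, was not tested. Uqcrfs1 lost its call without E14.5 (0.38, FDR 0.0546), E18.5 (0.33, FDR 0.0924) or P5 (0.34, FDR 0.0757), Uqcrq without E18.5 (0.48, FDR 0.0643) and Ndufv3 without P1 (-0.64, FDR 0.0585). Without E18.5, 1 member was higher, and without E12.5 or E18.5, 11 were lower.

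Erythroid cells differed from stroma in another way in the gene-wise fit: on the TMM scale 59 of 86 members were higher than in stroma and 5 lower (22.9% and 35.0% of all genes), with a median of 0.72 beside -0.34, although the summed share of all UMIs was lower in 7 of 7 libraries. All 8 complex III genes were higher, as were 27 complex I, 11 complex IV and 12 complex V genes, against 1 of 8 assembly factors. Cox8c, among these complex IV genes, passed the filter on low counts through the germ sums, and no test is given for it. Cox6b2 (2.50, SE 0.35, FDR 2.69e-07), Cox6a1 (1.90, SE 0.19, FDR 3.03e-10), Ndufb7 (1.70, SE 0.16, FDR 6.57e-11), Uqcrq (1.69, SE 0.19, FDR 4.64e-09) and Atp5s (1.64, SE 0.25, FDR 7.74e-07), the last a regulatory factor rather than a subunit, led the higher ones above 10 CPM. Among the lower ones were Ndufaf6 (-0.98, SE 0.40, FDR 0.0366), Ndufaf2 (-0.95, SE 0.22, FDR 4.19e-04), Atp5g2 (-0.84, SE 0.16, FDR 4.77e-05) and Ndufb5 (-0.75, SE 0.15, FDR 8.79e-05). Atp5g2 was at 31.7 to 165 CPM in erythroid cells beside 418 to 647 CPM in stroma, and Ndufb5 at 18.2 to 88.8 CPM beside 252 to 345 CPM. Cox6b2, at 70.5 to 147 CPM beside 43.8 to 112 CPM, had a higher mean than in stroma also as a share of all UMIs (113 and 71.8 CPM). Ndufaf6 lost its call without E16.5 (-0.94, FDR 0.0594), E18.5 (-0.93, FDR 0.0522) or P1 (-0.67, FDR 0.208), and 63 of the 64 calls remained without E16.5.

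The 13 mitochondrially encoded genes ranked the classes in another order. In germ cells they summed to 3.63, 2.77, 7.41, 4.56, 5.20 and 5.01% of UMIs from E12.5 to P5, and in PG cells to 5.35, 4.25, 5.57, 12.2, 8.71, 9.94 and 6.64% from E11.5 to P5. Germ cells were therefore below PG cells (-0.70 ± 0.32, SD, higher in 0 of 6 libraries on the log2 scale) while they were above them in the nuclear members, and PG cells were above stroma (0.86 ± 0.46, SD, higher in 7 of 7 libraries). Beside stroma, germ cells were not low: the difference was 0.25 ± 0.27 (SD, higher in 5 of 6 libraries), within its spread. In the gene-wise fit 0 of the 13 were higher in germ than in PG cells and 6 were lower (mt-Nd6, mt-Nd5, mt-Co1, mt-Nd1, mt-Nd2 and mt-Cytb), beside 34.0% and 31.2% of all genes, and 12 were higher in PG cells than in stroma, beside 18.3% of all genes. Between germ cells and stroma 4 of the 13 were higher in germ cells and 1 was lower, beside 36.1% and 29.4% of all genes. The ratio of nuclear to mitochondrially encoded UMIs was 1.12, 1.86, 0.376, 0.918, 0.959 and 1.10 in germ cells, 0.561, 0.654, 0.512, 0.157, 0.265, 0.256 and 0.417 in PG cells and 0.628, 0.699, 0.811, 0.295, 0.564, 0.620 and 0.619 in stroma. It was higher in germ than in PG cells of each shared library.

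**Figure D5:**
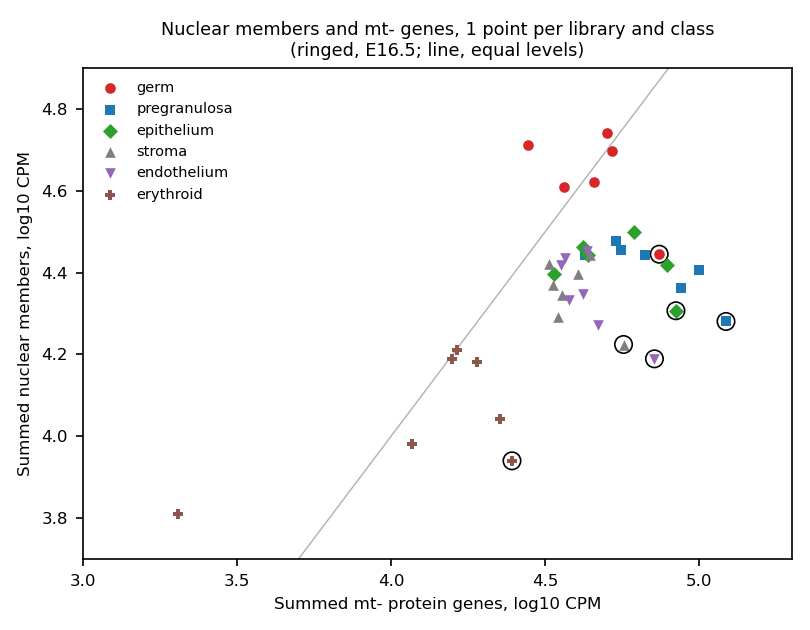
Summed nuclear members against the 13 summed mt- protein genes, both as log10 CPM, 1 point per library and class, with the E16.5 library ringed and a line where both are equal. The ratio in germ cells is 0.376 at E16.5 and 0.918 to 1.86 elsewhere, and PG cells lie to the right of the line, with more mt- UMIs, in all 7 libraries.

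Other gene lists of energy metabolism, chosen with earlier results in view, were read in the same fit, to be set beside 34.0% of all genes higher and 31.2% lower in germ than in PG cells. Between germ and PG cells the citric acid cycle with complex II had 10 of 17 genes higher and 0 lower, among them Sdhb (1.44) and Fh1 (1.18). Cytochrome c and its neighbours had 9 of 15 higher and 2 lower (Cox20 and Sco2), including among the higher Cyct, the testis cytochrome c, at 169, 192, 29.9, 52.7, 98.0 and 39.1 CPM in germ cells and 0 to 4.85 CPM in PG cells. With so little of it in PG cells, Cyct may have passed the filter on low counts through the germ sums, as Cox7b2 and Cox8c did. Of the regulators 9 of 14 were higher, including Nrf1 (1.53, SE 0.19, FDR 7.92e-09), Pprc1 (2.02, SE 0.31, FDR 6.11e-07) and Tfam (0.69, SE 0.20, FDR 0.00278), and the coactivators Ppargc1a (-5.11, SE 0.65, FDR 1.94e-08) and Ppargc1b (-2.01, SE 0.43, FDR 1.11e-04) were lower. Glycolysis went the other way: 1 of 19 tested rows was higher, the glucose transporter Slc2a3, and 14 were lower, with a median of -1.69. Against stroma the contrast was weaker: 4 of the 19 rows were higher in germ cells (Aldoc, Pfkp, Pkm and Gpi1) and 8 lower. Their median was -0.69, and 36.1% of all genes were higher and 29.4% lower in that comparison. Ldha was at 48.2, 71.8, 14.3, 54.2, 18.46 and 8.48 CPM in germ cells and 225 to 1131 CPM in PG cells (-3.31, SE 0.27, FDR 7.22e-13), without overlap. The mitochondrial ribosome had 64 of 77 genes higher in germ cells and 2 lower, with a median of 1.00. The proteasome had 27 of 39 higher and 3 lower, the latter being the immune subunits Psmb8, Psmb9 and Psmb10. The cytosolic ribosome list had 49 of 97 higher and 3 lower, and those 3 were kinases that share the Rps6k prefix. Lists taken by symbol also held such genes on the higher side, among them Rps6ka6 and Rps19bp1 here and Psmc3ip in the proteasome list. Of 7 hypoxia-responsive genes tested, 3 were higher (Bnip3, Egln3 and Pdk1) and 3 lower (Adm, Vegfa and Car9), near the shares of all genes. PG cells in turn were above stroma in 12 of the 19 glycolysis rows and below it in 2, beside 18.3% and 15.1% of all genes. Whether one list differed from another was not tested.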

How the data were processed

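Single-cell 3′ RNA-seq of 7 libraries, 1 per age, was analysed from the cell by gene UMI counts deposited by the authors. Per the labels these were made with Cell Ranger 3.1.0 on the mm10 reference (release 3.0), and Seurat is also named. The counts are raw and not normalized, and they were not corrected for gene length. Members and gene lists were chosen with earlier results of these data known.

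Cells with at least 500 genes were kept, with 31570750 to 121369111 UMIs a library. A gate required at least 1 UMI of each gate gene, 2 UMIs of Upk3b, 2 of the 3 endothelial genes, or 10% globin with 2 UMIs over red cell genes. Mural cells (2 UMIs of Rgs5 and 1 over Notch3, Cspg4, Kcnj8 and Abcc9) were taken before stroma. Cells passing several gates were left out, and Scrublet doublets were removed as an alternative. Its automatic threshold called under 1% at E11.5 and E12.5, where the highest 5% were taken. Counts were summed by library and class where at least 20 cells were present (40 sums, 28 residual degrees of freedom) and tested with edgeR 4.0.16 (filterByExpr, TMM, quasi-likelihood, R 4.3.3). Age trends used 1 class at a time, and their difference used germ and PG cells together. The libraries are the only replicates. In the class fit the library block takes out what the classes of a library share. Its p-values rest on how class differences vary between libraries, and so between ages, with that spread estimated over all classes together. The p-values of a trend rest on the scatter of the libraries around the fitted line. Intervals and limits cover counting error only.

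Genes named by rule were the 5 largest called changes per direction in a class contrast at 10 CPM or more, the 3 largest per trend, the paralogues with their partners, and the highest member of each complex. Others were named after their values were seen, and some items are not reported here. On simulated counts for germ against stroma (13281 genes, all given the same common spread), 31.1% of log2 changes of 1 and 100% of changes of 2 were recovered, and 0% of changes of 0.5. Genes with a smaller spread of their own can pass at smaller changes. Alternatives were DESeq2 1.42.0, DESeq2 size factors, other filters and gates, no library block and each library left out. Python 3.11.15, scipy 1.17.1 and scanpy 1.11.5 were used, with GENCODE M21 for gene positions.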

Additional observations from a re-analysis of the deposited data

Results flagged for a closer look

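The slopes of 2 members with age differed between germ and PG cells by a test of the difference itself. Of 87 members tested, 1 was higher and 1 lower (1.15% of members each), beside 2.29% and 2.21% of all genes. Neither count exceeded the share of all genes. The slope of Cox4i2 was higher in germ cells than in PG cells by 2.001 (SE 0.43, FDR 0.0332) on the log2 scale per step of age. That of Cox7a1 was lower in germ cells than in PG cells, with a difference of -1.15 (SE 0.26, FDR 0.0393). Cox4i2 rested on the P1 and P5 germ cells (38.7 and 355 CPM, from 179 and 51 cells), and the call was lost without E12.5 (2.23, FDR 0.0602), E14.5 (2.45, FDR 0.0876), P1 (1.86, FDR 0.158) or P5 (1.500, FDR 0.335). Cox7a1 rested on high germ values at E12.5 and E14.5 (106 and 153 CPM), and its call was lost without E12.5 (-0.84, FDR 0.226), E14.5 (-0.998, FDR 0.182) or P1 (-1.13, FDR 0.131). The steps from E14.5 to E16.5 in germ Cox7a1 (153 and 7.70 CPM) and from P1 to P5 in germ Cox4i2 lay between libraries of equal digestion time. The Cox7a1 step ends at the E16.5 library, which stood apart in its barcodes and mitochondrial share. Age and this library difference cannot be told apart in that step. Over the whole series digestion lengthened with age.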

How the results depend on the processing

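The germ excess kept its direction under every alternative run for the summed level. Leaving out each library gave 58 to 73 members higher and 0 to 2 lower against PG cells, and 60 to 72 higher and 0 to 2 lower against stroma. The same gave 4 to 9 higher and 2 lower for PG cells against stroma, 1 to 3 higher and 1 lower for epithelium, 1 to 3 higher and 5 to 11 lower for endothelium and 51 to 63 higher and 4 to 6 lower for erythroid cells. For the slopes it gave 0 to 1 higher and 0 to 2 lower in germ cells, 0 to 1 higher and 0 lower in PG cells, 0 in stroma, and 0 to 1 higher and 0 to 2 lower for the difference. The summed log2 differences were 0.76 to 0.85 for germ over PG cells, 0.95 to 1.03 for germ over stroma, 0.16 to 0.19 for PG cells, 0.15 to 0.22 for epithelium, -0.06 to 0.02 for endothelium and -1.09 to -0.88 for erythroid cells. The last was 0.23 with globin, mitochondrial and ribosomal genes out of the denominator.

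With DESeq2, 3 members were lower in germ than in PG cells, 7 were higher in epithelium, 5 were higher in endothelium, 1 fell with age in germ cells, 1 rose and 2 fell in PG cells, and 2 were higher and 2 lower in the difference of slopes. Without the library block the counts were 0 lower for germ against PG cells, 1 lower for germ against stroma, 1 higher and 1 lower for PG cells, 0 higher and 0 lower for epithelium, 1 higher and 4 lower for endothelium and 3 lower for erythroid cells. That fit kept, in the same direction, 58 of the 73 germ calls against PG cells and 60 of the 70 against stroma. It kept 57 of the 64 erythroid calls. For germ against stroma 1 member was lower with DESeq2 size factors, with 1000 genes and 10% mitochondrial UMIs, with stricter gates, with Scrublet doublets removed or with the Upk3b gate first, and 2 with no count filter. With 1000 genes and 10% mitochondrial UMIs, 5 were higher in PG cells, 1 was higher in epithelium and 11 were lower in endothelium. Stricter gates gave 5 higher and 2 lower in epithelium and 12 lower in endothelium. With the Upk3b gate first, which was chosen after seeing the data, 12 were higher and 2 lower in epithelium and 12 lower in endothelium. The causes of these shifts were not tested. Shares of all genes called under the alternatives, and with each library left out, are not given here. The shifts therefore cannot be assigned to the members rather than to all genes.

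Of 1165 values of named genes under an alternative, 1079 kept direction and call, 70 lost and 15 gained a call, and 1 reversed: Cox4i2 between germ and PG cells, at -0.065 without P5, where leaving out each library gave -0.065 to 3.14. Thinning to 2000 UMIs a cell gave shares of 17.3% for Cox4i2 and 34.7% for Ndufa4l2 in mural cells, and 2.94% for Cox7b2 and 3.98% for Cox8c in germ cells. Classes were paired within each library by the library block of the fit, and the labels give no replicate numbers that would pair samples across ages.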
